A study of Mus musculus with 12 samples.

Results

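Macrophage and immune cell markers were followed in the choroid plexus (ChP) of the lateral ventricle as the genes Csf1r, Cx3cr1, Aif1, C1qa, C1qb, C1qc, Cd68, Mrc1, Ptprc and Cd74, which were taken by symbol from the expression table, and these are 10 of the 24327 genes it lists. The values are FPKM, a read abundance scaled for transcript length and library size, so that levels can be set side by side between genes. Translating ribosome affinity purification (TRAP) had been applied to male mice that were heterozygous for both a Foxj1:Cre transgene and a floxed EGFP-L10a transgene. The Foxj1 promoter is active in ciliated epithelium, so Cre turned on the tagged ribosomal protein L10A in ChP epithelial cells, and an antibody against GFP then pulled out the ribosomes that carry it together with their RNA. The animals were 60 days old by the sample labels and 8 weeks old by the study's methods, and each sample pooled the tissue of 3 mice. Samples were taken at 9 a.m., 2 h after the lights came on, and at 9 p.m., 2 h after they went off. At each time 3 samples gave a TRAP library, which is the RNA bound to tagged ribosomes, and a supernatant library, which is the RNA that stayed unbound, making 12 libraries in 4 groups. Cre-negative controls were not analysed here. All 4 groups carry both transgenes, and the TRAP and supernatant libraries of a time share animal numbers in the labels.

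Macrophages live in the ChP stroma, between the epithelium and its leaky capillaries, and on the ventricular face of the epithelium as epiplexus cells. They depend on the growth factor receptor encoded by Csf1r, read the chemokine fractalkine through Cx3cr1, make the complement protein C1q, and present antigen on MHC class II molecules, whose assembly needs the invariant chain Cd74. They are not ciliated epithelium, and the Foxj1-driven tag was not designed to mark them.

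In these libraries the marker genes were low and patchy, and they were seen more often in the supernatant than in the TRAP fraction. Cd74 was the highest of them, with a mean of 9.44 FPKM over the 12 libraries, and it was above 0 in every supernatant library. Aif1, C1qa, C1qb, C1qc and Ptprc were above 0 in some supernatant libraries and listed at 0 in every TRAP library. Csf1r and Cx3cr1 were found in both fractions, with overlapping levels. Cd68 was listed at 0 in all 12 libraries. In no comparison did a marker pass the test for a difference.

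The depth of the libraries is unknown, because the files hold no counts. The number of genes above 0 ran from 7586 to 11660 in the TRAP libraries and from 9357 to 12427 in the supernatant libraries, and rows whose names begin with Mir, the prefix of microRNA genes, took 31.9% to 75.4% of the summed FPKM. A value of 0 here says only that the gene is listed at 0. Of 17 genes that nearly all cells use, 5 were at 0 in 1 or more libraries, among them Ppia, which encodes cyclophilin A and was above 0 in 2 TRAP and 2 supernatant libraries. The tissue itself was plain: each of the 12 epithelial markers examined was above 0 in all 12 libraries, and Ttr, the thyroid hormone carrier of ChP epithelium, lay between 20922 and 51514 FPKM. Each library is a bulk fraction of pooled tissue, in which fewer cells of a type, less RNA per cell and a different share of that RNA entering the fraction cannot be told apart.

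**Figure D1:**
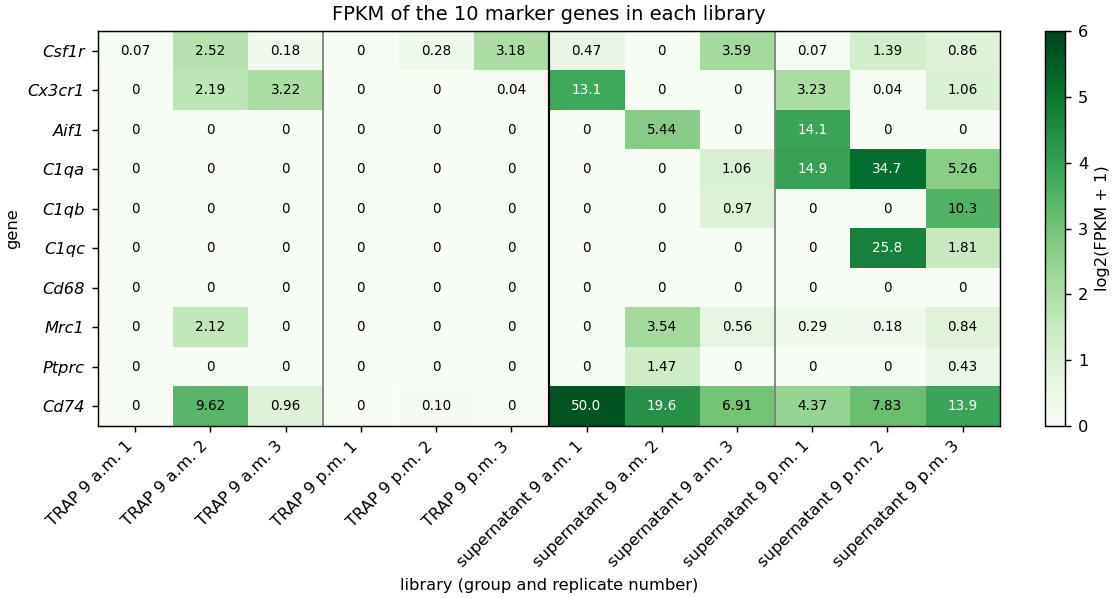
FPKM of each of the 10 marker genes (rows) in each of the 12 libraries (columns; group and replicate number), printed in the cells and shaded by log2(FPKM + 1). Most cells left of the heavy line, in the TRAP libraries, are 0, and Cd74 has a value above 0 in every supernatant library.

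C1q is built from A, B and C chains, whose genes C1qa, C1qb and C1qc lie side by side on the minus strand of chromosome 4 within 18675 bases (mm10, chr4:136880129-136898803). The promoter windows of C1qb and C1qc are shown because these neighbouring genes were listed at 0 in the same 6 TRAP libraries. The windows hold 250 bases before and 50 bases after the start and are taken from RefSeq (GRCm38.p6), both in the direction of transcription, at chr4:136886151-136886450 for C1qb and at chr4:136892865-136893164 for C1qc. Capitals mark GAGGAA or its reverse complement TTCCTC, the core of the purine-rich box bound by PU.1, a transcription factor of myeloid cells:
C1qb: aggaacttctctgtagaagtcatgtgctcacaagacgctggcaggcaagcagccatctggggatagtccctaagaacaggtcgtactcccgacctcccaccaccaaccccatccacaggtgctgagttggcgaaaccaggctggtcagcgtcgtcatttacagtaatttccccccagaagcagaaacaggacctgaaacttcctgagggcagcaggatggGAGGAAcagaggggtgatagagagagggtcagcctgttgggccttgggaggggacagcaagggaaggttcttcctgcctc
C1qc: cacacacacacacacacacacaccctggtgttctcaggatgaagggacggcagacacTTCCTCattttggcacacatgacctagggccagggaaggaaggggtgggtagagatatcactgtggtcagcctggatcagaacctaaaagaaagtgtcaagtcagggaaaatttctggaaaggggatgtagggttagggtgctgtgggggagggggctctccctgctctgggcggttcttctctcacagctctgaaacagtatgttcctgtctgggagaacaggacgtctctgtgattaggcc
Each of these 2 windows held the 6 letters once, on opposite strands. RefSeq windows of 7 of the 10 markers were searched, and those of C1qa, Csf1r and Cd74 were not. Among the 7 searched, 6 (Ptprc, Mrc1, C1qb, C1qc, Cd68 and Aif1, but not Cx3cr1) held the letters on either strand of at least 1 window. Counted by window, 6 of 8 marker windows held the letters, and they occur in 28.3% of all 32851 promoter windows of this length. A match is a description of the sequence, not a binding site.

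Of the receptors, Csf1r (chr18:61100598-61132149, plus strand) binds the growth factors CSF1 and IL-34, on which macrophages depend. Its level in the TRAP libraries was 0.0695, 2.52 and 0.178 FPKM at 9 a.m. and 0, 0.277 and 3.18 FPKM at 9 p.m. In the supernatant it was 0.475, 0 and 3.59 FPKM at 9 a.m. and 0.0735, 1.39 and 0.859 FPKM at 9 p.m. It was thus above 0 in 5 of 6 libraries of each fraction, and the 2 fractions overlapped at both times. The Csf1r gene overlaps Mir6983 and, on the other strand, Hmgxb3, and whether reads were counted by strand is not given in the sources used here.

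Cx3cr1 encodes the receptor for fractalkine, a chemokine held on the surface of the cells that make it. It was listed at 0, 2.19 and 3.22 FPKM in the TRAP libraries of 9 a.m. and at 0, 0 and 0.0373 FPKM in those of 9 p.m. In the supernatant it was 13.1, 0 and 0 FPKM at 9 a.m. and 3.23, 0.0369 and 1.06 FPKM at 9 p.m. One supernatant library therefore held its highest value while the other two of that group held none. In the GENCODE M21 annotation the Cx3cr1 gene (chr9:119901616-120069879, minus strand) overlaps 9 other genes, of which 5 have rows of their own in the table, so its reads could have been shared with neighbours, and its levels are uncertain.

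The C1q chains are secreted by tissue macrophages and microglia and start the classical complement pathway. C1qa (chr4:136895917-136898803) was listed at 0 in all 6 TRAP libraries, at 0, 0 and 1.06 FPKM in the supernatant of 9 a.m. and at 14.9, 34.7 and 5.26 FPKM in that of 9 p.m. C1qb (chr4:136880129-136886187) was above 0 in a single supernatant library at each time, with 0.972 FPKM at 9 a.m. and 10.3 FPKM at 9 p.m., both of them replicate 3. C1qc (chr4:136889804-136893065) was above 0 in the supernatant of 9 p.m. alone, at 0, 25.8 and 1.81 FPKM. C1qa was the chain found most often, and for it all 3 supernatant libraries of 9 p.m. exceeded all 3 of 9 a.m. The chains did not always appear together in the supernatant of 9 p.m. There C1qa was found alone in replicate 1, with C1qc in replicate 2 and with both other chains in replicate 3. C1qb and C1qc were found in no library without C1qa.

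Among genes named for macrophages themselves, Mrc1 encodes the mannose receptor CD206, a marker of macrophages at brain borders. Mrc1 (chr2:14229392-14332057, plus strand) was above 0 in 1 TRAP library, at 2.12 FPKM in replicate 2 of 9 a.m. In the supernatant it was 0, 3.54 and 0.562 FPKM at 9 a.m. and 0.290, 0.179 and 0.842 FPKM at 9 p.m., so it was found in 5 of 6 supernatant libraries at low level. Mrc1 overlaps Mir511 on the same strand, whose own row is listed at 0 in all 12 libraries. Aif1 (chr17:35170991-35176068), which encodes the actin-binding protein IBA1 used to stain microglia and macrophages, was above 0 in 2 libraries, at 5.44 FPKM in replicate 2 of the 9 a.m. supernatant and 14.1 FPKM in replicate 1 of the 9 p.m. supernatant. Cd68 (chr11:69664213-69666153), a glycoprotein of phagocyte lysosomes, was listed at 0 throughout.

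Ptprc (chr1:138062861-138175708, minus strand) encodes CD45, the phosphatase found on all leukocytes, and its mean of 0.158 FPKM over the 12 libraries was the lowest of the 9 markers found. It was above 0 in 2 libraries, at 1.47 FPKM in replicate 2 of the 9 a.m. supernatant and 0.433 FPKM in replicate 3 of the 9 p.m. supernatant. A gene shared by all leukocytes was thus listed at 0 in 4 of the 6 supernatant libraries, each of which held other markers.

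Cd74 (chr18:60803848-60812652, plus strand) had the highest mean level of the markers and was found in 9 of 12 libraries. It overlaps Mir5107 on the same strand, which has a row of its own that is listed at 0 in all 12 libraries, and how reads of such a pair were shared out is not known. In the supernatant it was 50.05, 19.6 and 6.91 FPKM at 9 a.m. (mean 25.5 ± 22.2, SD, n = 3) and 4.37, 7.83 and 13.9 FPKM at 9 p.m. (mean 8.69 ± 4.82, SD, n = 3). In the TRAP libraries of 9 a.m. it was listed at 0, 9.62 and 0.960 FPKM, and in those of 9 p.m. at 0, 0.0999 and 0 FPKM. At 9 p.m. the fractions did not overlap, and at 9 a.m. TRAP replicate 2 lay above supernatant replicate 3. That TRAP library held the highest level of Cd74 of its fraction and also the sole TRAP value of Mrc1.

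**Figure D2:**
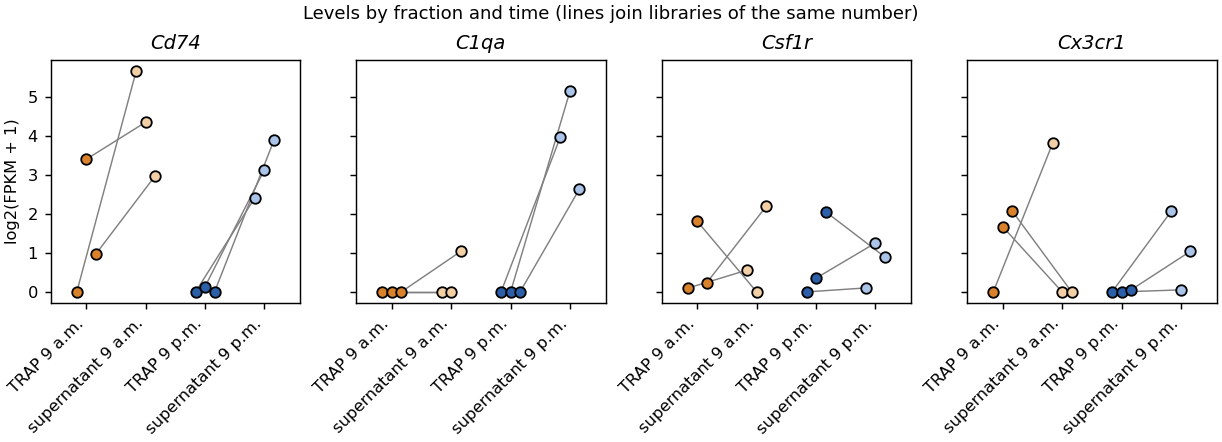
Level, as log2(FPKM + 1), of Cd74, C1qa, Csf1r and Cx3cr1 in each library (points) by fraction and time, with lines joining the TRAP and supernatant libraries of the same time and number. Cd74 is lower in TRAP than in the supernatant in all 6 pairs, a count that was not made over all genes. C1qa is at 0 in every TRAP library and highest in the supernatant of 9 p.m., and Csf1r and Cx3cr1 overlap between fractions.

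Counted over the 10 markers, 12 of 60 TRAP values (20.0%) and 32 of 60 supernatant values (53.3%) were above 0. With the bar raised to an FPKM above 1, an alternative chosen after seeing the data, the counts were 6 of 60 (10%) and 22 of 60 (36.7%). Of the 10 markers, 8 were above 0 in more supernatant than TRAP libraries and 0 in more TRAP than supernatant libraries. The first of these held for 33.2% of the 14574 genes found in any library and 45.1% of the 7350 genes whose mean FPKM lay in the range of the markers (0.158 to 9.44 FPKM). Listed at 0 in all TRAP libraries but found in the supernatant were 5 markers, against 9.62% of all genes found and 8.82% of those in the same range. The reverse, found in TRAP and listed at 0 in all supernatant libraries, held for 0 markers, 4.35% of all genes found and 3.71% of those in the range. Genes in the range were less sparse than the markers, with 56.8% of TRAP and 63.3% of supernatant values above 0. Aif1, C1qb, C1qc and Ptprc were each above 0 in only 2 libraries, so few values placed them in 1 fraction. The shares of genes in the range are therefore not matched to the markers for sparsity. Over all genes found, 67.3% of TRAP values and 71.7% of supernatant values were above 0, so the 2 fractions were closer to each other for genes at large than for the markers.

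Library by library, the number of markers above 0 was 1, 4 and 3 in TRAP at 9 a.m., and 0, 2 and 2 in TRAP at 9 p.m. The supernatant libraries held 3, 4 and 5 markers at 9 a.m., and 6, 6 and 8 at 9 p.m. Within the pairs of one number, the supernatant had more markers than TRAP in 5 of 6 and as many in the pair of replicate 2 at 9 a.m. The summed FPKM of the 10 markers ran from 0 to 16.4 over the TRAP libraries and from 13.1 to 70.0 over the supernatant libraries, where the TRAP library with 16.4 was again replicate 2 of 9 a.m. and exceeded 1 supernatant library. In the supernatant of 9 a.m., 9357, 9468 and 11734 genes above 0 stood beside 3, 4 and 5 markers. In that of 9 p.m., 10307, 9379 and 12427 genes stood beside 6, 6 and 8. Within each time the supernatant library with the most genes found held the most markers. Across times this did not hold, as 9379 genes stood beside 6 markers and 11734 beside 5. In TRAP, 9470, 11321 and 7586 genes stood beside 1, 4 and 3 markers at 9 a.m., and 9161, 11660 and 9656 beside 0, 2 and 2 at 9 p.m. The part of the number of genes found in the marker counts was not tested.

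**Figure D3:**
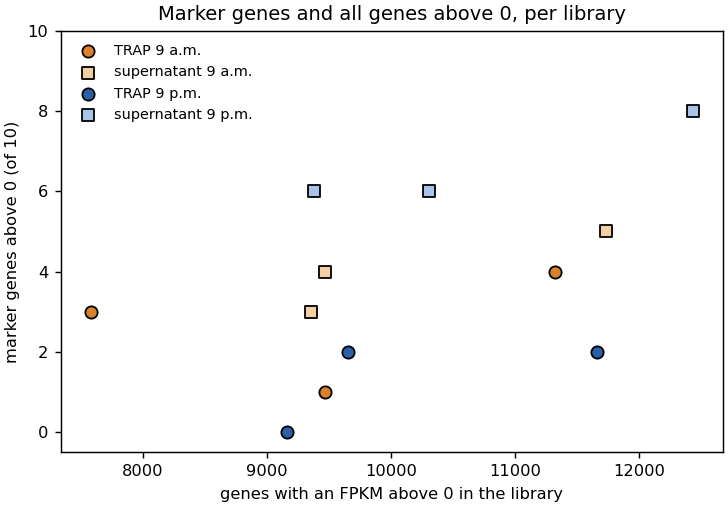
Number of the 10 marker genes above 0 (vertical axis) against the number of all genes above 0 (horizontal axis) in each of the 12 libraries, circles for TRAP and squares for supernatant. The 3 supernatant libraries of 9 p.m. hold 6 to 8 markers, those of 9 a.m. hold 3 to 5, and the TRAP libraries hold 0 to 4. The supernatant library with 8 markers has more genes above 0 than any TRAP library.

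The comparison of TRAP with supernatant asks which RNAs the tagged ribosomes hold more or less of than the unbound RNA of the same tissue. That unbound RNA includes RNA of the epithelium itself. It was tested with limma on log2(FPKM + 1) over all genes with a mean FPKM above 1 in the libraries compared, and a gene was called with a Benjamini-Hochberg adjusted p under 0.05 and a log2 fold change beyond 0.3 in either direction. At 9 a.m., 4 markers entered the test and 0 were called, beside 5 of 10796 genes overall (0.0463%). At 9 p.m., 5 entered and 0 were called, beside 3 of 10924 genes (0.0275%). With both times in one fit and time as a covariate, 6 entered and 0 were called, beside 12 of 11156 genes (0.108%). A marker that entered with its TRAP libraries at 0 did so through the supernatant alone.

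Cd74 came closest. Its log2 fold change, TRAP against supernatant, was -2.88 ± 1.18 (SE, 95% confidence interval -5.46 to -0.30, limma adjusted p = 0.886) at 9 a.m. and -3.11 ± 0.98 (-5.28 to -0.94, adjusted p = 0.818) at 9 p.m. Over both times the log2 fold change was -2.99 ± 0.72 (-4.53 to -1.46), with an unadjusted p of 0.000806 that ranked 43 of 11156 genes and an adjusted p of 0.209 in limma. Its TRAP library lay below the supernatant library of the same number in 6 of 6 pairs. How many of all genes did so was not counted, and nothing particular to Cd74 is read from it. Of all genes tested over both times, 56.8% had a negative log2 fold change. C1qa, listed at 0 in TRAP, had a limma adjusted p of 0.785 at 9 p.m., where its unadjusted p ranked 44 of 10924 genes, and of 0.500 over both times. At 9 p.m. Cd74 and C1qa were the 2 of 5 tested markers whose fractions did not overlap, with TRAP lower, as held for 7.00% of all genes tested. Both passed the filter on low values there through the supernatant, so nothing is read from this count or from the rank of C1qa. At 9 a.m. fractions without overlap, TRAP lower, were seen for 0 of 4 tested markers and 6.80% of genes.

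For the receptors the fit gave intervals that allow large differences in either direction. The log2 fold change of Csf1r, TRAP against supernatant over both times, was -0.07 ± 0.61 (95% confidence interval -1.37 to 1.22, limma adjusted p = 0.977), and that of Cx3cr1 was -0.53 ± 0.74 (-2.10 to 1.03, adjusted p = 0.862). At 9 a.m. Mrc1 had a log2 fold change of -0.40 ± 1.04 (-2.65 to 1.86, adjusted p = 0.959). A difference of 2-fold in either direction lies inside each of these intervals. All genes tested had a median log2 fold change of -0.20 at 9 a.m., -0.07 at 9 p.m. and -0.13 over both times.

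The comparison of 9 p.m. with 9 a.m. asks whether levels follow the time of day, here with a log2 fold threshold of 0.4. In the TRAP libraries 2 markers entered the test and 0 were called, beside 0 of 10563 genes (0%) by limma, of which 418 had an unadjusted p under 0.05. Cd74 there had a log2 fold change of -1.41 ± 1.06 (limma adjusted p = 0.941) and Csf1r of 0.09 ± 1.01 (adjusted p = 0.996). Leaving out TRAP replicate 2 of 9 a.m. took both below the filter, so that 0 markers entered. In the supernatant 7 markers entered and 0 were called, beside 1 of 11075 genes (0.00903%).

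Of these 7, C1qa, C1qb and C1qc passed the filter on low values through their libraries of 9 p.m., so their fold changes between times are a description. For C1qa the log2 fold change, 9 p.m. against 9 a.m., was 3.58 ± 1.14 (SE), which limma did not call (adjusted p = 0.970). It was the 1 tested marker whose times did not overlap with 9 p.m. higher, beside 4.90% of all genes tested, and nothing is read from this since the libraries of 9 p.m. brought it past the filter. Cd74 went the other way, with a log2 fold change of -1.19 ± 0.83 (-2.99 to 0.62, adjusted p = 0.970), and its times overlapped. The log2 fold change of C1qb was 0.84 ± 1.14 (adjusted p = 0.978) and C1qc was at 0 in every 9 a.m. supernatant library (adjusted p = 0.970). Neither Csf1r, at -0.17 ± 1.01, nor Cx3cr1, at -0.21 ± 1.28, passed (adjusted p = 0.994 for both in limma). Genes of red blood cells also had higher values in the supernatant of 9 p.m.: the summed FPKM of 5 erythroid genes was 0.0811 to 3.64 in the supernatant libraries of 9 a.m. and 12.8 to 106 in those of 9 p.m., with Hbb-bs, a beta globin, at up to 43.9 FPKM, and their part in the result was not tested. The interaction of time and fraction, which asks whether the fractions differed by different amounts at the 2 times, called 0 of 6 markers and 1 of 11156 genes (0.00896%), and its adjusted p for C1qa was 0.988 in limma.

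Other markers of the same cells were also sparse, and for them the 2 fractions lay closer together than for the 10 markers. Of 12 genes of border macrophages, Pf4 and Clec10a were at 0 in all libraries, 25 of 72 supernatant values (34.7%) and 21 of 72 TRAP values (29.2%) were above 0, and 0 of 4 tested genes passed over both times. Maf, a transcription factor of macrophages that other cells also use, was found in all 12 libraries. Folr2, a folate receptor of border macrophages, reached 78.1 FPKM in TRAP and 73.1 FPKM in the supernatant and was at 0 in 7 of the 12 libraries, and it is a close relative of Folr1, an abundant gene of ChP epithelium, so reads could have been split between them and its values are uncertain. Of 18 genes of myeloid cells at large, Spi1, which encodes PU.1, Tyrobp, Cd14, Fcgr1 and Hpgds were at 0 throughout. In this list 25 of 108 supernatant values (23.1%) and 17 of 108 TRAP values (15.7%) were above 0. Above 0 in more supernatant than TRAP libraries were 41.7% of the border macrophage genes and 33.3% of the myeloid genes. The same held for 45.1% of all genes in the markers' range of mean FPKM. The reverse held for 16.7% of each of the 2 lists. Lyz2, the lysozyme of phagocytes, was above 0 in 5 supernatant libraries, at up to 75.6 FPKM, and in 2 TRAP libraries, at no more than 2.86 FPKM. Ctss, the lysosomal protease cathepsin S, was found in 3 supernatant libraries, at up to 28.7 FPKM, and in 0 TRAP libraries. Irf8, a transcription factor of myeloid cells, was found in 2 supernatant and 3 TRAP libraries. Fcgr3, of the same list, lay in TRAP alone, at 12.8 FPKM in 1 library.

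Microglial genes gave little. P2ry12, P2ry13 and Gpr34 were at 0 in all libraries, and Siglech was found in 2 and Olfml3 in 4 supernatant libraries and neither in TRAP. Among 7 genes of MHC class II presentation, the partners of Cd74, H2-Aa was above 0 in 3 supernatant libraries and 1 TRAP library, H2-DMb1 in 3 and 4 and H2-DMa in 3 and 3, so that genes whose products work with Cd74 did not share its presence in every supernatant library. Markers of other immune cells were nearly all listed at 0: 7 of 8 dendritic cell genes (the exception was Zbtb46, found in 2 supernatant libraries and 1 TRAP library), 11 of 12 lymphocyte genes (the exception was Cd3d, found in 1 TRAP library) and 8 of 9 granulocyte and mast cell genes (the exception was Csf3r, found in 1 supernatant library) were at 0 in all 12 libraries.

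The ligands of the receptors were also examined. Cx3cl1, which encodes fractalkine, was above 0 in all 12 libraries, between 14.4 and 32.1 FPKM in TRAP and between 16.7 and 24.5 FPKM in the supernatant, in contrast to its receptor. Csf1, a ligand of Csf1r, was found in 4 TRAP and 3 supernatant libraries at up to 9.39 FPKM, and Mif, a cytokine that binds CD74, in 4 TRAP and 6 supernatant libraries at up to 127 FPKM. Over both times 0 of 4 tested genes of this list passed. Of 12 complement genes other than C1q, Cd59a and Cd55, which encode inhibitors on the cell surface, had the highest means. Both were found in all 12 libraries, and over both times 0 of 5 tested genes of the list passed.

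The epithelium and the stroma place these values. Over both times the 12 epithelial genes had a median log2 fold change of 0.16, TRAP against supernatant, with 0 called, and the sum of their FPKM was 39505 to 73248 in TRAP and 40076 to 53506 in the supernatant, so epithelial RNA was abundant in both. The 10 stromal genes had a negative log2 fold change in 10 of 10 in each comparison of fractions. Of all genes tested, 58.2% had one at 9 a.m., 52.7% at 9 p.m. and 56.8% over both times. The stromal median was -1.89 over both times. The summed FPKM of the stromal genes was 7.74 to 39.0 in TRAP and 110 to 336 in the supernatant, without overlap. The stromal values were lower in TRAP together with the macrophage and immune markers, and their part in them was not tested. The 1 call in any of the lists was Mgp, a matrix protein of stromal cells, at 9 p.m. (limma adjusted p = 0.00802), when it was listed at 0 in all 3 TRAP libraries. It therefore passed the filter on low values through the supernatant alone, and the call is a description. Over both times Mgp was not called (limma adjusted p = 0.183). Mgp was found in 5 supernatant libraries, at up to 243 FPKM, and in 1 TRAP library. The endothelial genes were found in 18 of 60 TRAP values (30.0%) and 27 of 60 supernatant values (45%), and Kdr, a receptor of vascular growth factor, in 6 TRAP and 5 supernatant libraries. Of 10 genes of neurons and glia, 28 of 60 TRAP values (46.7%) and 37 of 60 supernatant values (61.7%) were above 0, with Mbp, a myelin protein, found in all 12 libraries and 0 of 7 tested genes called over both times.

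**Figure D4:**
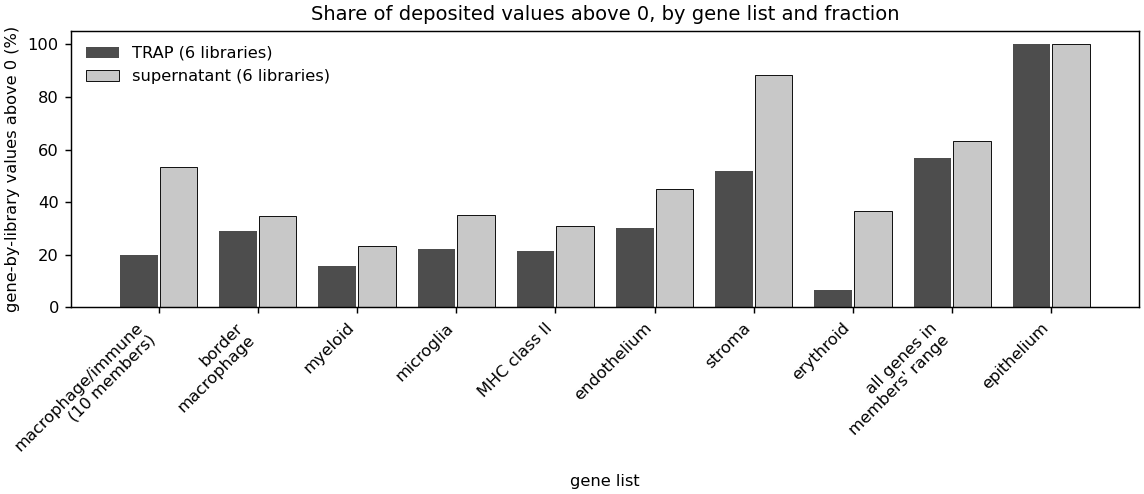
Percentage of gene-by-library values above 0 in the 6 TRAP (dark bars) and 6 supernatant libraries (light bars) for the markers, other gene lists and all genes in the markers' range of mean FPKM. The 10 markers stand at 20.0% and 53.3%, the stromal genes at 51.7% and 88.3% and the epithelial genes at 100% in both.

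A profile of the markers was made as the mean z-score of log2(FPKM + 1) over the 6 markers with a mean FPKM above 1, and 11150 genes were ordered by their Pearson correlation with it over the 12 libraries. Closest were Rbms3 (r = 0.92), Itih5 (r = 0.92), Pdzd8 (r = 0.89), Rpusd4 (r = 0.89) and Dock1 (r = 0.88), followed by Usp24, Cygb, Mgp, Atf7ip and Cald1 (r = 0.86 to 0.88). All of them were higher on average in the supernatant, for example Rbms3 with a mean of 6.34 FPKM in the supernatant, found in 6 libraries, and 0.171 FPKM in TRAP, found in 2. The 12 points share animal numbers in pairs and the difference between fractions, the genes at the head of an ordering of so many are the highest by construction, and the coefficients are a description.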

How the data were processed

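RNA of TRAP and supernatant fractions of pooled LV ChP had been made into libraries after depletion of ribosomal RNA and sequenced with 50-nt single reads. STAR (2.4.0) placed these on mm10, and the authors deposited FPKM for each gene and library, made with the Cufflinks tools. The version of those tools, the gene annotation and the handling of strand were not given in the sources used here. Of 24354 rows, 27 whose names had become dates were left out. The table holds no counts, so depth is unknown and no count model was used.

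Values were taken as log2(FPKM + 1) and tested with limma (3.58.1, R 4.3.3; empirical Bayes with an intensity trend) over genes with a mean FPKM above 1 in the libraries compared, with Benjamini-Hochberg adjustment over all of them. Fold changes on this scale understate those of low genes. The script was tested on simulated data. Thresholds were an adjusted p under 0.05 and a log2 fold change beyond 0.3 between fractions or 0.4 between times, and an adjusted p under 0.05 for the interaction. Libraries come from pools of 3 mice. The main fits treated the TRAP and supernatant libraries as unpaired, so their p-values measure the spread between libraries. Pairing by replicate number entered only as an alternative.

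Groups came from the sample labels, which give the TRAP and supernatant libraries of a time the same number. Those libraries are therefore paired by the labels, although their deviations from the group means correlated at -0.075 to -0.014 over genes. Between times the numbers do not pair samples.

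The markers and the 14 other gene lists were chosen with earlier results of these data known. Genes named are all 10 markers, of each other list those called and the 3 with the highest mean FPKM, and the 10 genes closest to the marker profile; some genes this rule names are not reported here. Other genes of a list were named after their values were seen, because they were at 0 or lay in 1 fraction. Housekeeping genes and the bar of an FPKM above 1 were also chosen after seeing the data. Gene positions are from GENCODE M21, where 23289 names (95.7%) matched, and promoters from RefSeq. Tried as alternatives were a pseudocount of 0.1, no filter, rescaling without the Mir rows, quantile normalization, no intensity trend, the replicate number as a block, and leaving out each library.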

Additional observations from a re-analysis of the deposited data

How the results depend on the processing

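In 90 fits over the 6 comparisons and their settings, 0 called a marker. With the replicate number as a block the count of markers called stayed 0 in each comparison, and the pairing changed no call; for Cd74 over both times the adjusted p in limma was 0.500 with the block, and over all settings it ran from 0.123 (without TRAP 9 a.m. replicate 2) to 0.500. The 525 alternative values in total include counts of markers called and of markers at 0, which have no direction. Of the 525, 494 were either log2 fold changes that kept their direction and side of the threshold or counts that stayed equal or close. The other 31, all log2 fold changes and from 10 results, changed sign, and the cause was not tested. Quantile normalization turned the log2 fold change of Csf1r to 0.32 (fractions, 9 a.m.), 0.16 (fractions, both times), -0.40 (times, TRAP) and -0.42 (interaction). A pseudocount of 0.1 turned Cx3cr1 to 0.84 (fractions, 9 a.m.) and 0.67 (times, supernatant), and Csf1r to 0.076 (times, supernatant) and -0.074 (interaction). Leaving out 1 library gave a range of -0.66 to 0.11 for Csf1r and -0.66 to 1.25 for Cx3cr1 between fractions at 9 a.m., and of -0.26 to 0.090 for Csf1r over both times. Between times it gave -0.22 to 0.49 for Csf1r in TRAP, and in the supernatant -0.63 to 0.16 for Csf1r, -0.85 to 0.29 for Cx3cr1 and -0.90 to 1.30 for Aif1. For the interaction it gave -0.067 to 0.72 for Csf1r, -1.30 to 0.039 for Aif1 and -0.96 to 0.75 for Cd74. Without TRAP 9 a.m. replicate 2, 7 markers rather than 6 were at 0 in every TRAP library. A scaling moved the median of all genes by over 0.1: between fractions at 9 a.m. from -0.20 to -0.03 with quantile normalization, at 9 p.m. from -0.07 to -0.24 with rescaling, between times in TRAP from 0.16 to -0.03 with rescaling and -0.02 with quantile normalization, and for the interaction from 0.11 to -0.09 with rescaling and -0.05 with quantile normalization. With 3 libraries a group, most markers at 0 in many of them and no counts, absence cannot be told from a level under what these libraries could record.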
